A study of Mus musculus with 30 samples.

Results

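The effect of estradiol that newborn females shared over the whole first day after injection was measured by comparing all 15 EB-treated mice with all 15 vehicle-treated mice, which together are the 30 arrays of the study. EB is estradiol benzoate, an esterified estrogen, and each C57BL/6J female received 7.5 μg of it in peanut oil, or the oil alone, under the skin on the day of birth. The whole hypothalamus of each mouse was taken at 1 of 5 intervals after the injection (1 h, 3 h, 6 h, 12 h, 24 h), with 3 EB-treated and 3 vehicle-treated mice at each time and each mouse on 1 GeneChip Mouse Genome 430 2.0 array. The spread behind each test is thus that between mice, of which the litters are not given. For every probe set, a group of short probes against 1 transcript region, the EB minus vehicle difference in log2 signal was taken within each time and the 5 differences were averaged, so that a change over the day common to both treatments cancels. Of 45037 probe sets without controls, 27022 with a mean signal of at least 21.9 were tested, and they covered 12388 genes named by a single symbol.

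Estradiol acts in the brain mainly through estrogen receptor α, a ligand-activated transcription factor encoded by Esr1, which binds estrogen response elements or other transcription factors and changes the transcription of target genes such as Pgr and Greb1. In newborn male rodents the testes supply androgen that aromatase in the brain turns into estradiol, and this estradiol shapes the circuits for ovulation and sexual behaviour in the hypothalamus and preoptic area. Newborn females lack this supply, and EB injected on the day of birth is a standard way to give it to them.

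The labelled tissue was checked against its markers, and the arrays were checked for samples that stood apart. Of 30 hypothalamic neuropeptide genes 23 passed the signal filter, among them Oxt (oxytocin), Pomc (pro-opiomelanocortin) and Vip, while Gnrh1, Kiss1 and Agrp did not pass it. Of 28 hypothalamic transcription factor genes 23 passed. The cortical and thalamic marker list also had 16 of 20 genes above the filter, so some neighbouring tissue cannot be told apart from low expression in the hypothalamus itself. The EB-treated mice with array numbers 1 and 2 at 24 h stood apart in 26 measured leptomeningeal markers, genes of the fibroblasts that form the brain's membranes. The mean log2 level of these markers, each centred on its mean over the 30 arrays, was -2.90, -2.82 and -0.78 in the EB-treated mice at 24 h and 0.06, -0.03 and -0.14 in the vehicle-treated mice at 24 h. At the other times it lay between -0.23 and 1.13. In a bulk dissection fewer cells of a type and less RNA per cell cannot be told apart. Averaged over the times, the median signal of an array differed by -0.04 on the log2 scale between treatments (exact permutation p = 0.497, two-sided). The log2 ratios of 3 prime to 5 prime signal for Actb and Gapdh, which rise as RNA degrades, differed by 0.00 and 0.02 (exact permutation p = 0.995 and 0.208), and the scaled 18S rRNA control by -0.01 (exact permutation p = 0.936). These averages hid opposite differences, since the array median was at -0.25 at 3 h and 0.23 at 24 h, the Gapdh ratio between 0.04 and 0.07 from 1 h to 12 h and at -0.10 at 24 h, and 18S at -0.47 at 3 h and 0.86 at 24 h. Vehicle-treated mouse 2 at 6 h stood apart in the cortical and thalamic markers, with a mean centred log2 level of 0.59 against -0.30 and -0.42 in the other vehicle-treated mice of that time, and without it 14 probe sets were called in the average, 5 higher and 9 lower, against 20.

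Few probe sets had an averaged difference that passed the test. limma called 20 of 27022 probe sets (0.074%) at an adjusted p under 0.05, 5 of them higher (0.0185%) and 15 lower (0.0555%) in EB-treated mice. At an unadjusted p under 0.05 there were 2344 probe sets (8.67%), of which 1449 were higher (5.36%) and 895 lower (3.31%). The 20 averaged differences were small, from -0.60 to 0.43 on the log2 scale. Of the 20, 9 had the same sign at all 5 times, against 5.04% of all probe sets, and for 9 the difference between EB and vehicle itself changed with time (adjusted p under 0.05, moderated F test in limma), against 0.958% of all. Choosing probe sets on the average of these same 5 differences favours a shared sign. The test for a change with time uses the same differences and the same estimate of spread. Both shares are therefore descriptions only. At single times limma called 1 probe set at 1 h, a lower one (0.0037%), 26 higher (0.0962%) and 102 lower (0.377%) at 3 h, and 159 higher (0.588%) and 592 lower (2.19%) at 24 h. At 6 h and at 12 h limma called 0, while 1623 (6.01%) and 1773 (6.56%) reached p under 0.05 before adjustment. The number of averaged calls moved between 4 and 37 when 1 array was left out, and without scaling of the arrays it was 2, both lower.

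Over all probe sets, the differences at one time had little in common with those at another. Pearson's r between the differences at 2 times ranged from -0.20 (12 h and 24 h) to 0.17 (1 h and 3 h) over 27022 probe sets, which are not independent of one another. No array was used at more than 1 time. The median averaged difference was 0.01, with a standard deviation of 0.10 over probe sets and a median standard error of 0.07.

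**Figure D1:**
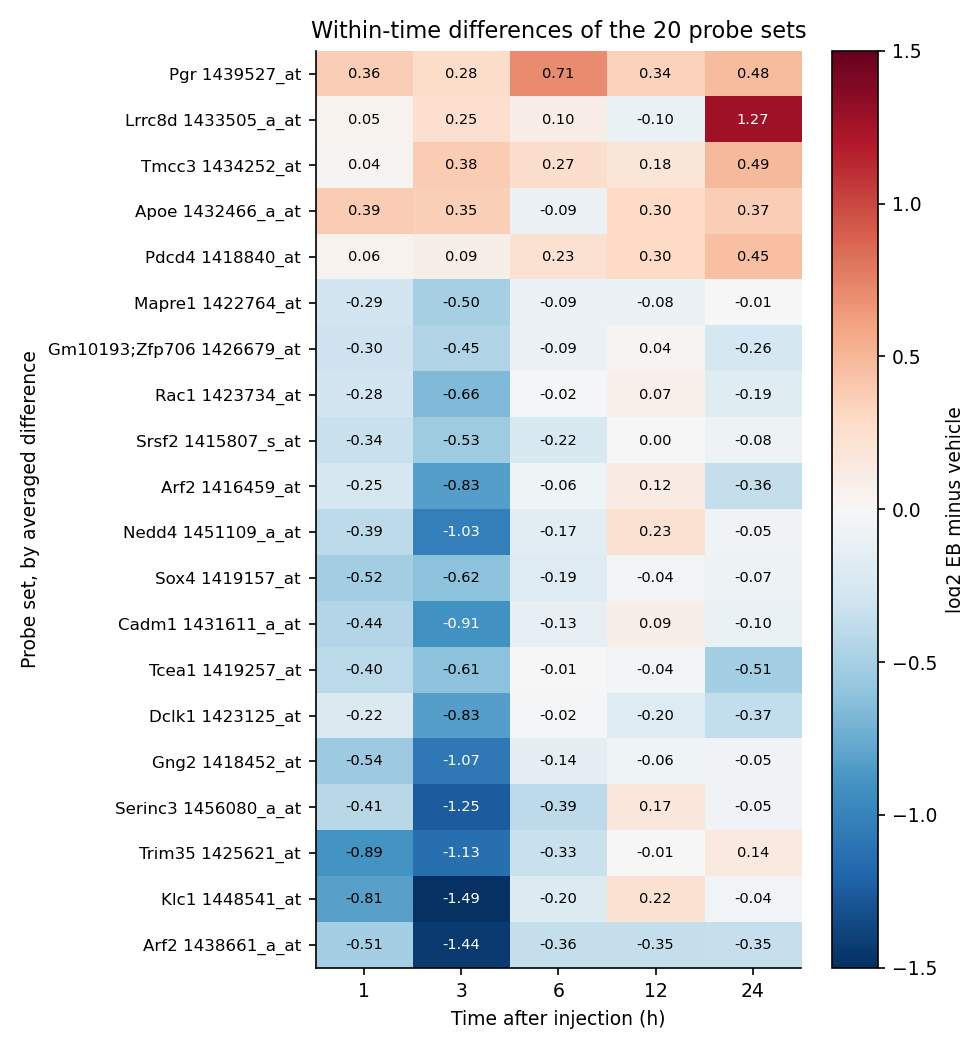
Heat map of the log2 difference EB minus vehicle (colour and printed value) at each time after injection (x axis, h) for the 20 probe sets called in the averaged comparison (y axis, gene and probe set, from the highest averaged difference to the lowest). Pgr is above 0 at all 5 times, while the 15 lower probe sets all have their lowest value at 3 h.

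Pgr, the gene of the progesterone receptor and a classical target of estrogen receptor α, rose in EB-treated mice and gave the smallest p of all probe sets. At 1 h the scaled signals of probe set 1439527_at were 115, 115 and 125 in EB-treated mice and 105, 87.7 and 83.9 in vehicle-treated mice. At 3 h they were 163, 144 and 103 against 109, 110 and 114, and at 6 h 171, 165 and 191 against 121, 96.4 and 105. The groups did not overlap at 1 h and 6 h, while at 3 h the lowest EB-treated mouse lay under all 3 vehicle-treated mice. At 12 h the signals were 212, 190 and 175 against 136, 158 and 161, and at 24 h 212, 157 and 199 against 127, 131 and 148. All EB-treated mice thus lay above all vehicle-treated mice at 4 of the 5 times, which held for 3 of 27022 probe sets (0.0111%), the other 2 being of Tmcc3 and Mtor. The mean signal of vehicle-treated mice was 92.3 ± 11.3 (SD, n = 3) at 1 h and 135 ± 11.3 at 24 h, and that of EB-treated mice was 118 ± 5.71 and 189 ± 28.7.

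The averaged difference for Pgr was 0.43 on the log2 scale (standard error 0.06), a fold of 1.35, with an adjusted p = 0.00305 from limma and an exact permutation p = 5.63e-06 (two-sided, treatment permuted within each time, smallest possible 6.25e-07). The differences at the single times were 0.36, 0.28, 0.71, 0.34 and 0.48 in order of time, and the test for a change of the difference between times gave an adjusted p = 0.555 from limma, which does not show that the 5 differences were equal. Pgr passed with each time left out in turn, including 24 h (adjusted p = 0.0294 from limma), and without each single array. It did not pass without scaling of the arrays, at 0.39 (adjusted p = 0.247 from limma). The only other Pgr probe set kept, 1455772_at, was dimmer. Its averaged difference was 0.16 (standard error 0.09, adjusted p = 0.659 from limma), and its EB-treated and vehicle-treated mice overlapped at all 5 times.

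The sequence around the start of Pgr is shown because it is the gene with the smallest p, and those of Greb1 because Greb1 is the other textbook target described here. All are from RefSeq on GRCm38.p6 and run 5′ to 3′ from 250 bases before to 50 bases after an annotated start. The palindromic estrogen response element GGTCANNNTGACC was searched on both strands, and its arms, GGTCA or the reverse complement TGACC, are in capitals. The Pgr window is at chr9:8899583-8899882 on the plus strand, and those of Greb1 are at chr12:16757190-16757489 and chr12:16800837-16801136 on the minus strand.
Pgr: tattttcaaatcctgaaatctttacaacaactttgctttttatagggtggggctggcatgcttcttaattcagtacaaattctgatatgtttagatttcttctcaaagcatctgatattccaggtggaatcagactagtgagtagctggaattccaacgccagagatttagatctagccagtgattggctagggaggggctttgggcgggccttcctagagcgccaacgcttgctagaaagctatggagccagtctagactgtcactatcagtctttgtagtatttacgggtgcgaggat
Greb1, first start listed: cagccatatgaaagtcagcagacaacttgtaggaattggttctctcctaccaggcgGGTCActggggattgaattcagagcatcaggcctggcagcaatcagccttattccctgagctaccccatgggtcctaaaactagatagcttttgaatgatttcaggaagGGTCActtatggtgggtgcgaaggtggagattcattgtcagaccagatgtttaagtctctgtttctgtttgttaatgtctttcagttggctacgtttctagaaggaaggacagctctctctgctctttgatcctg
Greb1, second start listed: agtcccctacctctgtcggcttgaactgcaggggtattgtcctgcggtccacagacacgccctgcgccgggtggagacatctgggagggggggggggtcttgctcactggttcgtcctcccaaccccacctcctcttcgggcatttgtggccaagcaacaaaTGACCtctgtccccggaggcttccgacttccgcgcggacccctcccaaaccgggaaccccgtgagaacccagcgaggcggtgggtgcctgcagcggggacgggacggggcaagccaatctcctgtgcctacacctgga
The whole element was in none of the 3 windows, and it was in 23 of all 32851 promoter windows of this length (0.07%). An arm was absent from the Pgr window, present in both Greb1 windows, and present in 40.5% of all windows. Among the genes called here, 5 called higher had 14 windows, of which 4 held an arm (28.6%), and 9 called lower had 12 windows, of which 7 held an arm (58.3%). Cadm1, Rac1, Tcea1 and Trim35, the other 4 called lower, are not in this count. None of these windows, some of which overlap, held the whole element. Such a match is only a match of letters, and elements farther from the start were not searched.

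**Figure D2:**
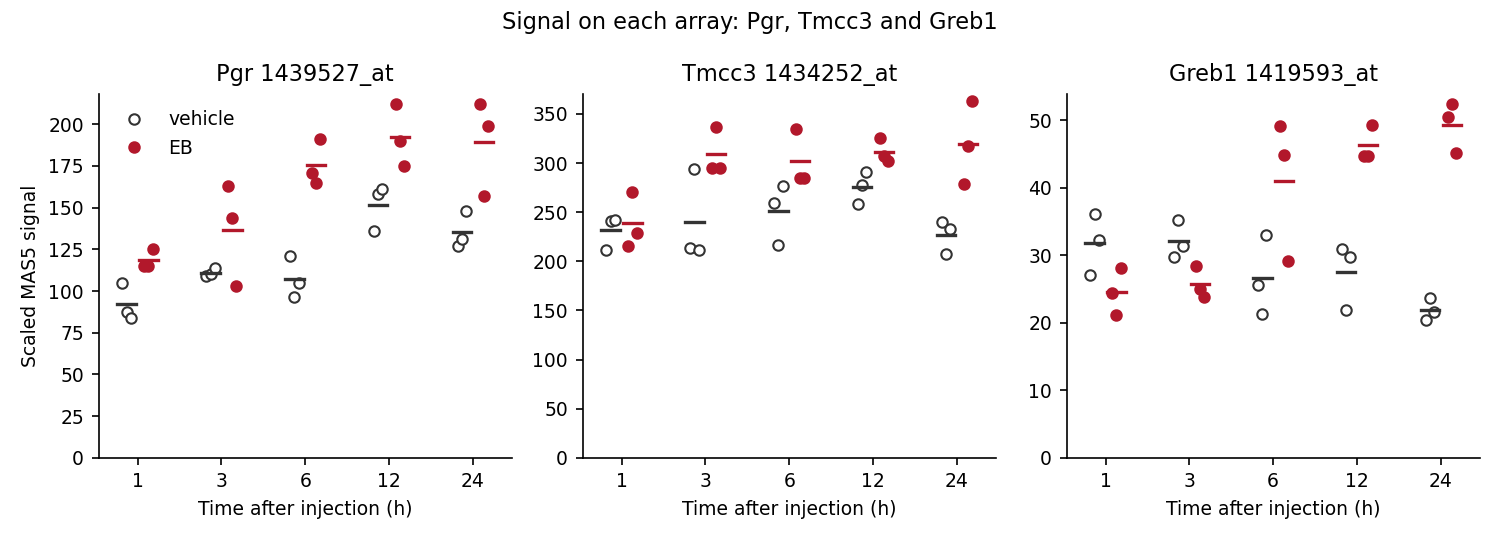
Scaled MAS5 signal (y axis, linear, from 0) of each array against time after injection (x axis, h) for probe sets of Pgr, Tmcc3 and Greb1, with open circles for vehicle-treated mice, filled circles for EB-treated mice and a short line at each mean of 3. Pgr and Tmcc3 have EB-treated mice above all vehicle-treated mice at 4 of 5 times, while Greb1 does so at 12 h and 24 h and is lower in EB-treated mice at 3 h.

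Tmcc3, which encodes a membrane protein with coiled coils, also rose. Its probe set 1434252_at had an averaged difference of 0.27 (standard error 0.05, fold 1.21, adjusted p = 0.0406 from limma). At 1 h the signals were 216, 271 and 229 in EB-treated mice against 212, 241 and 242, with overlap. At 3 h they were 295, 337 and 295 against 214, 294 and 212, and at 24 h 279, 317 and 363 against 240, 207 and 233. At 3, 6, 12 and 24 h no EB-treated mouse overlapped with a vehicle-treated mouse. The other 4 Tmcc3 probe sets kept were at 0.21, 0.24, 0.13 and 0.14, all above 0, and none passed. The call was lost when any of 20 of the 30 arrays was left out.

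Pdcd4, an inhibitor of translation initiation, also rose. Its single probe set, 1418840_at, had differences of 0.06, 0.09, 0.23, 0.30 and 0.45 in order of time, each larger than the one before. The averaged difference was 0.22 (standard error 0.04, fold 1.17, adjusted p = 0.0232 from limma). At 1 h the signals were 607, 578 and 605 against 526, 585 and 611, and at 24 h 811, 820 and 846 against 596, 627 and 591. The groups were separate at 12 h and 24 h and overlapped at 1, 3 and 6 h. The test for a change between times did not pass (adjusted p = 0.278 from limma), and without the 24 h arrays the call was lost (adjusted p = 0.34 from limma).

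Lrrc8d, which encodes a subunit of volume-regulated anion channels, was called on the average but its difference lay at 24 h. At 24 h probe set 1433505_a_at had signals of 319, 264 and 320 in EB-treated mice and 136, 110 and 127 in vehicle-treated mice, a log2 difference of 1.27. At 1, 3, 6 and 12 h the differences were 0.05, 0.25, 0.10 and -0.10, and the groups overlapped at each. The mean signal in order of time was 173, 192, 308, 280 and 301 in EB-treated mice and 167, 162, 289, 299 and 125 in vehicle-treated mice. The averaged value, 0.32 (standard error 0.06, adjusted p = 0.0232 from limma), changed with time (adjusted p = 0.00089 from limma), and it was not called without 24 h (adjusted p = 0.767 from limma). The other Lrrc8d probe set, 1433506_at, was at 0.01 on average and at 0.35 at 24 h, where its signals of 133, 134 and 119 against 117, 92.6 and 94.0 were also separate. Without the 2 EB-treated mice that stood apart at 24 h, Lrrc8d was at 0.33 (adjusted p = 0.0317 from limma).

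Apoe, which encodes a lipid carrier made in the brain mostly by astrocytes, rose on average by 0.26 (standard error 0.05, fold 1.20, adjusted p = 0.0325 from limma). Its only probe set, 1432466_a_at, had means of 1940 ± 290 (SD, n = 3) in EB-treated and 1470 ± 78.3 in vehicle-treated mice at 1 h, and of 2800 ± 276 and 2160 ± 78.6 at 24 h. The groups were separate at 1, 12 and 24 h, and at 6 h the difference was -0.09 with overlap. Of 19 measured markers of astrocytes and radial glia, none passed in the averaged comparison, and 5 were higher and 1 lower at an unadjusted p under 0.05, against 6.57% and 2.34% of all genes by their brightest probe set. The median of the list was 0.06 and that of all genes 0.02. Apoe was not called after quantile normalization, without 24 h (adjusted p = 0.197 from limma) or without any of 11 single arrays.

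The 15 probe sets called lower shared a course that was not steady over the day. All 15 were below 0 at both 1 h and 3 h, all had their largest difference at 3 h, and all 15 were also called lower at 3 h alone, where 0.377% of all probe sets were. The 3 h difference is part of the average by which the 15 were chosen, so this overlap is partly built in. The median difference of the 15 was -0.41, -0.83, -0.14, 0.00 and -0.08 in order of time. For 8 of the 15 the change of the difference between times passed the test, against 0.958% of all probe sets. That test comes from the same fit as the choice of the 15, so this share is a description only. Without the 1 h arrays, without the 3 h arrays, or without both, none of the 15 was called, and without 24 h, 4 were.

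Klc1, the gene of kinesin light chain 1, which links the motor kinesin to its cargo, fell on the average. At 1 h probe set 1448541_at had signals of 479, 417 and 306 in EB-treated mice against 705, 672 and 697 in vehicle-treated mice. At 3 h they were 223, 193 and 160 against 465, 593 and 552, so that the groups were far apart. At 12 h they were 156, 185 and 150 against 149, 183 and 100, which overlapped. The averaged difference was -0.46 (standard error 0.08, fold 0.725, adjusted p = 0.0105 from limma), and the differences were -0.81, -1.49, -0.20, 0.22 and -0.04 in order of time. It was called without scaling too (adjusted p = 0.0285 from limma).

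Arf2, which encodes a small GTPase of vesicle transport, was the only gene with 2 probe sets called. Probe set 1438661_a_at had the lowest averaged value of the 20, -0.60 (standard error 0.12, fold 0.659, adjusted p = 0.0325 from limma). At 3 h its signals were 83.0, 51.5 and 46.7 in EB-treated mice and 148, 177 and 153 in vehicle-treated mice. It was below 0 at all 5 times, and the groups were separate at 1, 3 and 24 h. Probe set 1416459_at was at -0.28 (standard error 0.05, adjusted p = 0.0105 from limma), with signals of 351, 290 and 251 against 505, 511 and 558 at 3 h. At 12 h this probe set stood at 241, 227 and 243 against 207, 247 and 202, a difference of 0.12. A dimmer Arf2 probe set, 1456473_x_at, was at -0.36 (adjusted p = 0.0894 from limma), and the brightest, 1416458_at, at -0.08 (adjusted p = 0.525 from limma).

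Sox4 and Gng2 were the only lower genes with the same sign at all 5 times that were still called without the 24 h arrays (adjusted p = 0.0366 and 0.0363 from limma). Sox4 encodes a transcription factor of neural precursors and young neurons. At 1 h its probe set 1419157_at had signals of 399, 376 and 358 against 533, 508 and 583, at 3 h 287, 267 and 299 against 382, 420 and 520, and at 24 h 360, 307 and 295 against 342, 326 and 342. The averaged difference was -0.29 (standard error 0.05, adjusted p = 0.0232 from limma). Gng2 encodes a γ subunit of heterotrimeric G proteins. At 1 h its probe set 1418452_at had signals of 215, 186 and 184 against 300, 263 and 289, and at 3 h 164, 131 and 118 against 282, 285 and 291. Its averaged difference was -0.37 (standard error 0.07, adjusted p = 0.0232 from limma), and at 12 h and 24 h the differences were -0.06 and -0.05. In both genes the groups were separate at 1 h and 3 h and overlapped at 6, 12 and 24 h.

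The other genes called lower had varied roles. Trim35, a tripartite-motif protein, was at -0.44 (-0.89 at 1 h and -1.13 at 3 h), Serinc3, a membrane protein, at -0.39, and Dclk1, a kinase that binds microtubules, at -0.33. Tcea1, an elongation factor of RNA polymerase II, was at -0.31, with -0.01 at 6 h, -0.04 at 12 h and -0.51 at 24 h. Cadm1, a cell adhesion molecule, was at -0.30, and Nedd4, a ubiquitin ligase, at -0.28, of which -1.03 was measured at 3 h and 0.23 at 12 h. Srsf2, a splicing factor, was at -0.23, Rac1, a small GTPase that regulates the actin cytoskeleton, at -0.22, and Mapre1, which binds the growing ends of microtubules, at -0.19. One probe set that matches both Gm10193 and Zfp706 was at -0.21, with signals of 490, 463 and 503 against 646, 690 and 649 at 3 h and of 487, 513 and 442 against 567, 578 and 578 at 24 h. It was among 4 of the 20 that passed whichever single array was left out, with Pgr, Klc1 and Arf2 1416459_at.

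The level of these 15 probe sets also changed over the day in vehicle-treated mice. These vehicle values enter the differences by which the 15 were chosen, so high values at 1 h and 3 h are partly built in. Their mean log2 signal, each centred on its mean over the 30 arrays, was 0.74, 0.63 and 0.70 in vehicle-treated mice at 1 h and 0.49, 0.62 and 0.62 at 3 h. It was -0.15, -0.04 and -0.14 at 6 h, -0.63, -0.35 and -0.73 at 12 h, and 0.21, 0.28 and 0.20 at 24 h. EB-treated mice stood at 0.38, 0.21 and 0.16 at 1 h and at -0.13, -0.34 and -0.47 at 3 h, so that EB-treated mice at 3 h lay within the range of vehicle-treated mice at 6 h and 12 h. At 3 h the EB-treated arrays were also dimmer, with a log2 array median lower by 0.25 before scaling and the 18S rRNA control lower by 0.47 after it, and their part in the result was not tested.

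**Figure D3:**
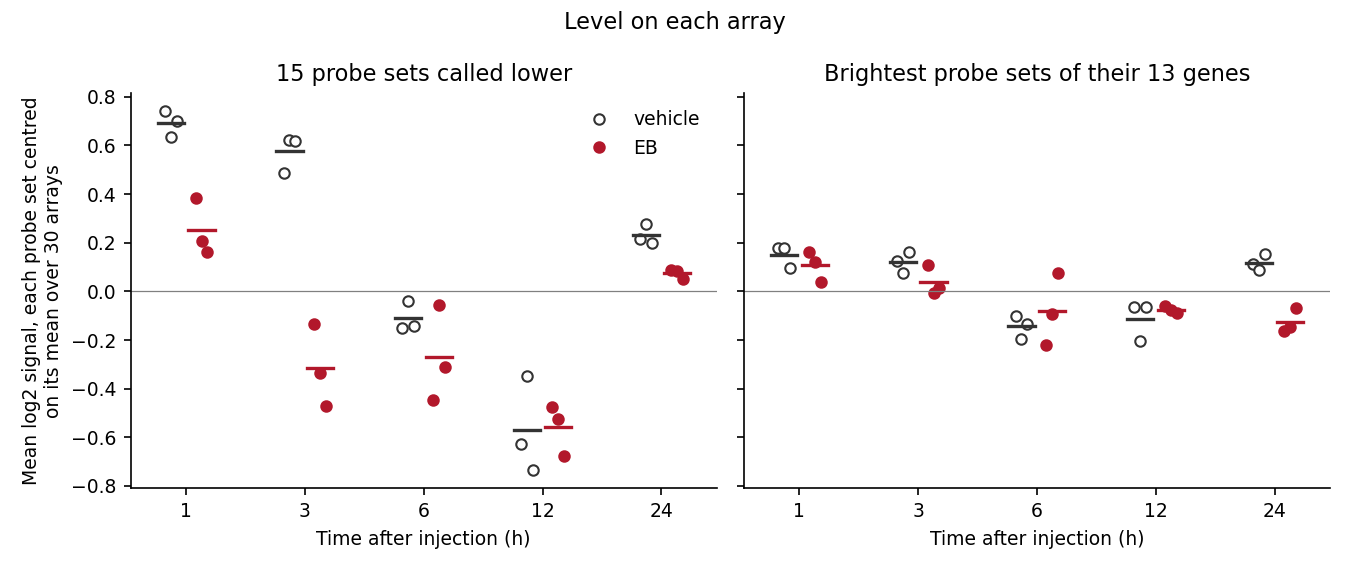
Mean log2 signal per array (y axis, each probe set centred on its mean over 30 arrays) against time after injection (x axis, h) for the 15 probe sets called lower (left) and the brightest probe set of each of their 13 named genes (right), where open circles stand for vehicle-treated and filled circles for EB-treated mice and lines for the means of 3. On the left, vehicle-treated mice lie between 0.49 and 0.74 at 1 h and 3 h, with all EB-treated mice below them, and under 0 at 6 h, while on the right the values of both groups lie between -0.22 and 0.18. The 15 were chosen on differences between these same arrays, which favours the separation on the left.

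Other probe sets of the same genes had smaller averaged differences as a group, and some of them had the same course. The called probe sets were chosen on their averaged difference, so smaller values in the others are partly built in. The 14 probe sets called lower that have a single symbol belong to 13 genes, and in none of the 13 was the called probe set the brightest one. The brightest probe sets of these 13 genes were at a median of -0.06 (range -0.21 to 0.05), 11 were below 0 and none was called. At 3 h their median was -0.07, from -0.37 for Rac1 to 0.18 for Cadm1. Their mean centred log2 signal overlapped between the groups at 1, 3, 6 and 12 h and was separate at 24 h, with -0.16, -0.15 and -0.07 in EB-treated and 0.11, 0.09 and 0.15 in vehicle-treated mice. For Klc1 the brightest probe set, 1417005_at, had an averaged difference of 0.00 (standard error 0.05, adjusted p = 0.999 from limma). All 40 other probe sets of the 13 genes had a median of -0.02 on average and of 0.00 at 3 h. Of these 40, 25 were below 0, 9 had an unadjusted p under 0.05 (22.5%, against 8.67% of all probe sets), 3 were called at 3 h (7.5%, against 0.474% of all) and 0 in the averaged comparison. Nedd4 1421955_a_at was at -0.33 at 1 h and -0.48 at 3 h, the brightest Rac1 probe set, 1451086_s_at, at -0.20 and -0.37, and Gng2 1428157_at at -0.21 and -0.18. In these 3, named as examples out of the 40, the groups were separate at both times. Over all probe sets, 4.06% had all EB-treated mice below all vehicle-treated mice at 2 or more times. Srsf2 1452439_s_at was separate at all 5 times, with EB-treated mice below at 4 of them and above at 12 h. All EB-treated mice lay below at 4 or more times in 3 of 27022 probe sets (0.0111%). The lowest averages among the brightest were -0.16 for Rac1 and -0.21 for Srsf2 (adjusted p = 0.092 and 0.219 from limma). The genes called higher differed in this respect, as a description of 5 genes only: 4 were called by their brightest probe set, Pdcd4 and Apoe having no other, and the 6 other probe sets of Pgr, Lrrc8d and Tmcc3 were all above 0, with a median of 0.15. Counted over 12388 genes by their brightest probe set, 4 genes were called higher and 0 lower, with 814 higher and 290 lower at an unadjusted p under 0.05.

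**Figure D4:**
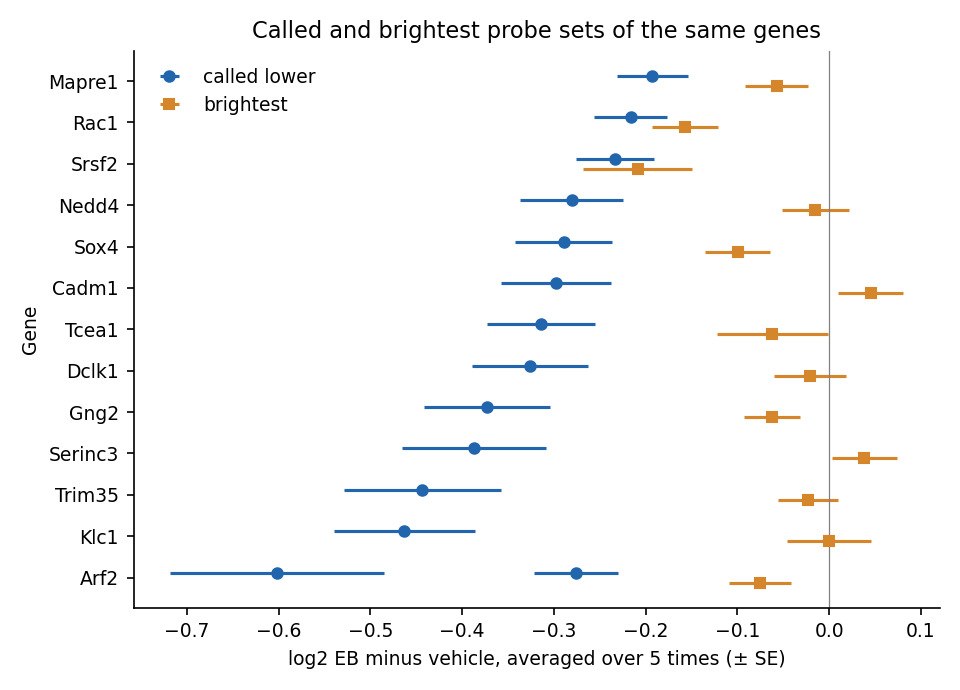
Averaged log2 difference EB minus vehicle with its standard error (x axis) for the 13 genes with a probe set called lower (y axis), as circles for the called probe sets and squares for the brightest probe set of the same gene. The squares lie between -0.21 and 0.05, and for each gene the called probe set lies to the left of the brightest. The called probe sets were chosen on this same value, which favours that order.

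The probe sets just outside the threshold were of both kinds. Lypla1, a depalmitoylating enzyme, was at -0.36 (adjusted p = 0.0508 from limma) with -1.04 at 3 h, and Zfhx3, a transcription factor, at -0.37 (adjusted p = 0.0551 from limma) with -0.88 at 1 h and -0.89 at 3 h. Vip, the gene of vasoactive intestinal peptide, was at 0.49 (standard error 0.10, adjusted p = 0.0606 from limma). Its signals were 36.8, 35.3 and 40.7 in EB-treated mice against 42.6, 42.6 and 34.2 at 1 h, 125, 77.9 and 117 against 70.0, 74.5 and 72.4 at 12 h, and 184, 182 and 117 against 80.8, 94.8 and 68.2 at 24 h. Vip thus overlapped at 1, 3 and 6 h and was separate at 12 h and 24 h, with differences of -0.08, 0.47, 0.55, 0.53 and 0.97 in order of time. The Mtor probe set 1436267_a_at, of the kinase that couples nutrients to growth, was at 0.58 (standard error 0.13, adjusted p = 0.089 from limma) and was named after its values were seen.

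Among 25 measured genes of 34 in a list of estrogen-responsive genes, Pgr was the only one called, 6 were higher and 0 lower at an unadjusted p under 0.05, and the median was 0.04. Over all genes by their brightest probe set 6.57% were higher and 2.34% lower by that measure, and the median was 0.02. Without scaling of the arrays the median of the list was 0.00 and that of all genes -0.02. Greb1, a coactivator of estrogen receptor α and one of its targets, had a difference that changed sign over the day. Probe set 1419593_at, which was dim, had signals of 28.5, 25.0 and 23.9 in EB-treated mice against 29.7, 35.3 and 31.4 at 3 h. At 12 h it had 44.8, 44.8 and 49.4 against 31.0, 21.9 and 29.7, and at 24 h 50.5, 52.4 and 45.2 against 20.5, 23.7 and 21.6. Its differences were -0.37, -0.32, 0.61, 0.77 and 1.17 in order of time, and they differed between times (adjusted p = 0.0137 from limma). The average of 0.37 did not pass (adjusted p = 0.134 from limma), whereas the average over 6, 12 and 24 h, a choice made after the values were seen, was 0.85 (adjusted p = 0.02 from limma). The other Greb1 probe set, 1439568_at, was at 0.36 on average (adjusted p = 0.169 from limma) and 0.67 over 6, 12 and 24 h (adjusted p = 0.0407 from limma). Nrip1, a corepressor of estrogen receptors that they also induce, was at 0.14 (adjusted p = 0.274 from limma), with -0.11 at 1 h and 0.36 at 24 h.

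Receptors and partners other than Pgr did not pass. Of 9 measured receptors of a list of sex steroid and orphan receptors the median was 0.03, and Esr2 was not above the signal filter. The brighter Esr1 probe set, 1460591_at, was at -0.19 (standard error 0.09, adjusted p = 0.57 from limma), with -0.70 at 6 h and -0.49 at 12 h. The dimmer one, 1435663_at, was at -0.40 (standard error 0.10, adjusted p = 0.134 from limma, exact permutation p = 0.000367), and its difference was below 0 at all 5 times. Of 17 measured coregulators of nuclear receptors, 5 were higher at an unadjusted p under 0.05 and 0 lower (6.57% and 2.34% of all genes), with a median of 0.04 that was 0.00 without scaling. Of 10 measured genes of steroid synthesis and metabolism the median was 0.04, and Cyp19a1, the gene of aromatase, was not above the filter.

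Immediate early genes, which neurons transcribe within minutes of stimulation, had their differences early. None of 19 measured genes passed in the average, 5 were higher and 0 lower at an unadjusted p under 0.05 (6.57% and 2.34% of all genes), and the medians in order of time were 0.33, 0.23, -0.19, 0.15 and -0.05. Fos had an averaged difference of 0.58 (standard error 0.15), which did not pass in limma (adjusted p = 0.152). Its signals at 1 h were 518, 1580 and 430 in EB-treated mice against 611, 291 and 314, and at 3 h 206, 290 and 623 against 133, 184 and 139. The EB-treated mice were spread widely at both times, and they were separate from vehicle-treated mice at 3 h and 6 h. Egr1 likewise had 678, 2790 and 683 against 1020, 369 and 402 at 1 h, where 1 EB-treated mouse was far above the other 2, and an averaged difference of 0.50 (adjusted p = 0.429 from limma). Nr4a1, an orphan receptor of the same early response, was at 0.26 (adjusted p = 0.277 from limma).

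None of 23 measured hypothalamic neuropeptide genes was called. By the unadjusted p 5 were higher and 0 lower, against 6.57% and 2.34% of all genes, and the median was 0.06. Oxt and Pomc were the 2 genes of this list with the same sign at all 5 times, which 5.47% of all genes had. Oxt, the gene of oxytocin, was at 0.25 (standard error 0.06, adjusted p = 0.14 from limma, exact permutation p = 0.000795), with differences of 0.17, 0.26, 0.25, 0.16 and 0.40 in order of time. Its signals at 6 h were 201, 255 and 211 against 188, 198 and 171, and at 24 h 204, 275 and 307 against 181, 206 and 201. The groups were separate at 3 h and 6 h and overlapped at the other times. Pomc, the precursor of melanocortins and β-endorphin, was at 0.28 (standard error 0.10, adjusted p = 0.398 from limma), above 0 at all 5 times but with groups that overlapped at all except 24 h. Ghrh, the releasing hormone of growth hormone, was at 0.26 (adjusted p = 0.429 from limma).

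**Figure D5:**
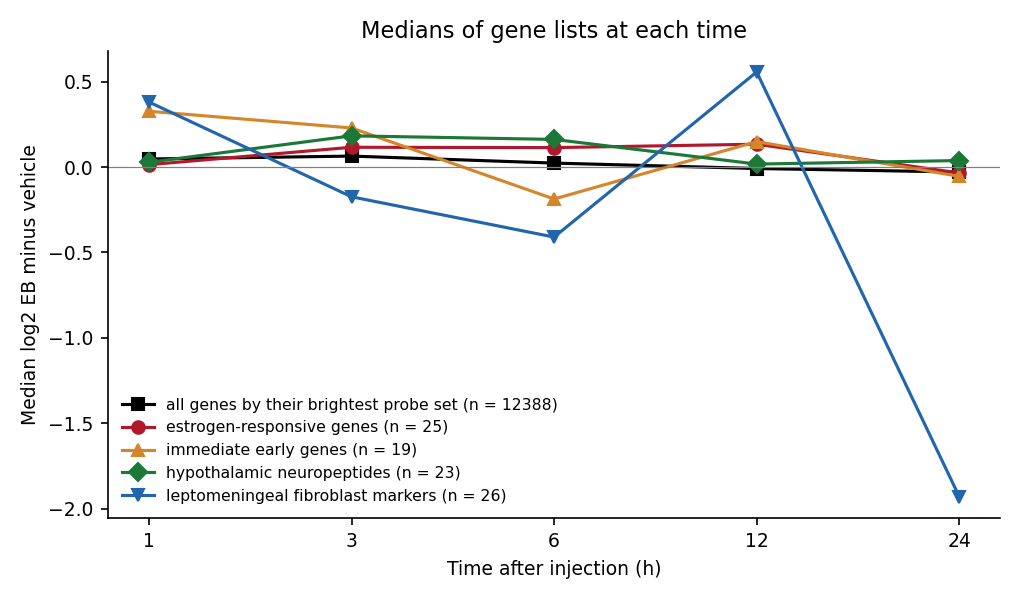
Median log2 difference EB minus vehicle (y axis) at each time after injection (x axis, h) for 4 gene lists and for all genes, 1 probe set a gene (n in the legend, without error bars). The leptomeningeal markers fall to -1.93 at 24 h and the immediate early genes are highest at 1 h and 3 h, while all genes stay between -0.03 and 0.06.

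Markers of meninges, matrix and border macrophages had averaged values that came mostly from 24 h. Of 26 measured leptomeningeal markers none was called in the average, but 25 were below 0 (39.2% of all genes) and 11 were lower by the unadjusted p (2.34% of all genes), the list's median being -0.31. This median was -1.93 at 24 h, it was 0.08 without the 24 h arrays and -0.11 without the 2 EB-treated mice that stood apart, and 14 of the 26 changed with time (0.92% of all genes). The mean centred log2 level of the list ranged from -2.90 to 1.13 in EB-treated mice and from -0.23 to 0.95 in vehicle-treated mice. Of 47 measured extracellular matrix genes 38 were below 0, with a median of -0.06 that was 0.06 without 24 h. Fbln2, a basement membrane protein, was at -0.28 (adjusted p = 0.233 from limma) with -0.88 at 24 h, and Tnc, tenascin C, at -0.17 with -0.63. Of 16 microglia and macrophage markers 3 were higher and 3 lower at an unadjusted p under 0.05 (6.57% and 2.34% of all genes). The 3 lower ones, Lyve1, Pf4 and Mrc1, mark macrophages at the brain's borders and had their lowest differences at 24 h. Pf4 was at -0.49 on average and -2.53 at 24 h, and Mrc1 at -0.38 and -1.69. Lyve1 had signals of 0.83, 1.45 and 19.7 against 70.8, 41.6 and 64.3 at 24 h, and no fold is given because the first lies under the floor of 1. Cx3cr1, a marker of microglia, was at 0.31 and above 0 at all 5 times (adjusted p = 0.398 from limma).

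Lists of neural and cell functions had averaged medians close to that of all genes, while some lay farther off at single times. At 24 h the median was -0.26 for ribosomal proteins and -0.18 for neuronal markers, against -0.03 for all genes. Of the 26 ribosomal proteins 4 changed with time (0.92% of all genes). At 12 h the median was 0.25 for circadian clock genes and -0.01 for all genes. Of 30 lists, 27 had no member called by its brightest probe set, and in the other 3 the member so called was Pgr. Dimmer probe sets of list members could be called, as those of Srsf2, Klc1 and Nedd4 were. Medians of the averaged differences lay between -0.31 for leptomeningeal markers and 0.12 for microglia and macrophage markers, and those below are of the same kind. The median was 0.04 for 12 genes of GABA and prostaglandin signalling, 0.02 for 21 genes of dendritic spines and synapses, 0.01 for 20 Bcl2 family and caspase genes, 0.03 for 26 modifiers of DNA and histones and 0.09 for 19 circadian clock genes. It was 0.01 for 16 glucocorticoid-responsive genes, 0.02 for 14 heat shock and cold-inducible genes, 0.00 for 18 cholesterol synthesis genes, 0.01 for 33 oxidative phosphorylation subunits, -0.01 for 26 ribosomal proteins, 0.00 for 22 cell cycle genes and -0.01 for 37 splicing regulators. Of the splicing regulators, 5 were lower and 1 higher at an unadjusted p under 0.05 (2.34% and 6.57% of all genes), and the lowest p was that of Srsf2. For cell types the median was -0.04 for 18 endothelial, -0.02 for 9 mural, 0.04 for 14 oligodendrocyte, 0.07 for 13 ependymal and choroid plexus and 0.02 for 16 neuronal markers. It was -0.07 for 16 telencephalic and thalamic markers and -0.05 for 23 hypothalamic transcription factors. Bnip3, a mitochondrial member of the Bcl2 family, had the lowest p of its list at 0.14 (adjusted p = 0.185 from limma), as had Slc1a3, a glutamate transporter of astrocytes, at 0.19 (adjusted p = 0.272 from limma).

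Of 13 measured genes that the study itself names, Pgr was called by its brightest probe set and Klc1 and Nedd4 by dimmer ones. The study chose some of these genes on these samples, so their count is not independent evidence. Tmed2, another of the named genes, was not among those measured here, so no result is given for it. Ptgds, the brain-type prostaglandin D2 synthase and also a leptomeningeal marker, was at -0.71 (standard error 0.27, adjusted p = 0.412 from limma) with -4.17 at 24 h and values from -0.16 to 0.42 at the other times. It was called without EB-treated mouse 3 at 24 h (-1.01, adjusted p = 3.47e-07 from limma) and was at -0.11 without EB-treated mice 1 and 2 of that time. Neurod6, a transcription factor of cortical neurons, was at -0.76 (standard error 0.32, adjusted p = 0.484 from limma). Single arrays carried much of it, since vehicle-treated mouse 2 at 6 h had 899 where the other vehicle-treated mice of that time had 112 and 102, and EB-treated mouse 1 at 12 h and mouse 3 at 24 h had 9.22 and 10.3. Leaving out 1 of these 3 arrays at a time gave -0.55, -0.56 and -0.53. Hcrt, the orexin precursor, was at -0.24 (adjusted p = 0.675 from limma), with -1.26 at 12 h and 0.58 at 1 h. Igf2, Apod, Fn1 and Vtn had their lowest values at 24 h, from -1.05 to -1.93 by their brighter probe sets, and none passed in the average. The 4 kept Meis2 probe sets, of a homeobox transcription factor, lay between -0.11 and -0.05, and by 1417129_a_at vehicle-treated mouse 2 at 6 h had 611 where the others of its group had 27.3 and 30.4.

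Among probe sets with a difference between times, most had it at 24 h. Of 259 probe sets that passed the test of a difference between times (0.958%), 195 had their largest difference at 24 h (75.3%, against 27.1% of all probe sets), and 173 of those were lower in EB-treated mice. At 24 h the log2 18S rRNA control was 11.1, 11.4 and 11.4 in EB-treated and 10.7, 10.8 and 9.77 in vehicle-treated mice, without overlap, and its part in the result was not tested. For 34 others the largest was that at 3 h, and the 1 h, 6 h and 12 h differences led in 11, 11 and 8. Without EB-treated mice 1 and 2 at 24 h, 22 probe sets passed this test and 22 passed in the averaged comparison, 6 higher and 16 lower, against 259 and 20 with them.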

How the data were processed

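Whole hypothalami of 30 newborn female mice were measured on GeneChip Mouse Genome 430 2.0 arrays, 1 mouse an array. The authors deposited linear signal intensities computed with MAS5 (version and target scaling not given in the sources used here), without pooling mice. The study compared groups by fold change at each time in GeneSpring GX. It tested chosen genes by an analysis of variance with treatment and time as factors. Its calls were not used here. Array medians ran from 28.0 to 66.9, so all arrays were first brought to one median, 41.3 (their mean), floored at 1 (0.00123% of values) and taken to log2. Of 45101 probe sets 64 controls and then the 40% with the lowest mean were left out. Gene symbols came from the platform annotation, and of 27022 probe sets kept 22524 had 1 symbol, 562 had several and 3936 had none. The number of arrays limits the precision of each value.

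Differences were tested in limma 3.58.1 (R 4.3.3) on 10 group means with an intensity trend (28.7 degrees of freedom) and Benjamini-Hochberg adjustment over all probe sets at 0.05. The contrast was the mean of the 5 EB minus vehicle differences, and a moderated F test compared the 5. Single values were also tested by exact permutation of treatment within times (3200000 assignments). On simulated data with 27022 probe sets the averaged test recovered 68% of 1.25-fold, 92% of 1.5-fold and 100% of 2-fold and 3-fold changes. There a small part of the probe sets was changed, by the same amount at all 5 times, with noise independent between arrays. These shares therefore do not hold for a difference that lies at 1 time or for noise that probe sets share on an array. Lists used the brightest probe set of each gene and have no test. The genes named were those called, those just outside, Pgr, Greb1, Esr1 and the genes the study names, up to 4 list members with the smallest p and the 5 probe sets with the smallest p between times. The comparison, the members and the lists were chosen with earlier results of these data known. Altogether 47 alternatives were tried: scaling, pseudocount, filter, array weights, replicate number as a block, an additive model, the test of the study's methods, and leaving out arrays or times. Leaving out 2 EB 24 h arrays together, and 1 h and 3 h together, was chosen after seeing the data.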

Additional observations from a re-analysis of the deposited data

Results flagged for a closer look

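The EB minus vehicle difference changed between the 5 times for 259 of 27022 probe sets (0.958%; moderated F test in limma, adjusted p under 0.05). Among the 20 probe sets called in the averaged comparison, 9 were of this kind, a description only because both tests come from the same fit. Lrrc8d 1433505_a_at (adjusted p = 0.00089 from limma) was higher in EB-treated than in vehicle-treated mice at 24 h, where the vehicle-treated mice were at their lowest. Probe sets with their lowest difference at 3 h were Klc1 1448541_at (adjusted p = 0.0025 from limma), Nedd4 1451109_a_at (0.0045), Arf2 1416459_at (0.0082), Rac1 1423734_at (0.016), Serinc3 1456080_a_at (0.018), Cadm1 1431611_a_at (0.027), Trim35 1425621_at (0.029) and Gng2 1418452_at (0.03).

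The 5 smallest p between times belonged to Lrrc8d and to 4 probe sets not called in the average. Those 4 each had an adjusted p = 0.0002 from limma and their largest difference at 24 h. Rpl27a 1437729_at, of a ribosomal protein, was at 1.39 at 24 h and between -0.21 and 0.08 at the other times. Psmb3 1460198_a_at, of a proteasome subunit, was at -0.81 at 24 h, the probe set 1435716_x_at that matches Snurf and Snrpn at -1.01, and Mycbp2 1434274_at, of a ubiquitin ligase, at -0.89.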

How the results depend on the processing

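The 20 probe sets called in the average kept their direction in 938 of 939 values under the alternatives, and 584 of these were called. The exception was Nedd4 1451109_a_at, at 0.003449 (adjusted p = 0.999 from limma) without the 1 h and 3 h arrays together. That value is the average of its differences at 6, 12 and 24 h, -0.17, 0.23 and -0.05, and their cause was not tested. The numbers called were far less stable. The count of 20 (5 higher, 15 lower) became 2 (0 and 2) without scaling, 40 (9 and 31) after quantile normalization, 32 (9 and 23) with 16 added before log2, 42 (25 and 17) with array weights and 1 (1 and 0) in an additive model. Without the filter it was 13, of which 8 were lower. It was 1 (1 and 0) without 1 h, 3 (3 and 0) without 3 h, 49 (16 and 33) without 6 h, 135 (46 and 89) without 12 h, 6 (2 and 4) without 24 h and 9 (8 and 1) without 1 h and 3 h together. The methods' test, an analysis of variance of treatment and time on unscaled linear signals, was adjusted here over 27022 probe sets. It gave 0 (0 and 0), with 1238 at an unadjusted p under 0.05, and 2 between times. The study reported it for genes it had chosen, with a treatment effect for Hcrt, Tmed2, Klc1 and Nedd4. The count of 0 is not comparable with those results.

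Leaving out 1 array gave 4 to 37 calls, 1 to 13 higher and 3 to 31 lower. Each of 4 arrays brought it to 4 when left out (EB mouse 1 at 6 h, vehicle mouse 1 at 1 h, vehicle mouse 3 at 3 h, vehicle mouse 2 at 24 h). It was 8 for EB mouse 2 at 3 h, 10 for EB mouse 2 at 1 h, and 11 for mouse 2 of vehicle at 3 h and of EB at 24 h. It rose to 32 for EB mouse 1 at 1 h, to 35 for EB mouse 3 at 24 h and to 37 for EB mouse 1 at 3 h. Pgr, Klc1, Arf2 1416459_at and the Zfp706 probe set were called in all 30 of these fits.

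The 259 differences between times became 84 without scaling, 51 without the filter, 1075 with array weights, 154 without 1 h, 473 without 6 h, 0 without 24 h (2466 at an unadjusted p under 0.05) and 22 without EB 24 h replicates 1 and 2 together. Leaving out 1 array gave 17 to 472. Of the 24 h arrays, EB mouse 1 gave 17, EB mouse 2 gave 77, and vehicle mice 1, 2 and 3 gave 18, 74 and 89. Of the others, vehicle mice 2 and 3 at 12 h gave 393 and 163, EB mouse 1 at 6 h gave 418 and EB mouse 2 at 12 h gave 472.

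Same-numbered EB and vehicle arrays did not deviate together (r from -0.13 to 0.09, 0 of 15 pairs over 0.1), so the numbers were not taken as pairs. With the replicate number as a block in 15 pairs there were 15 calls, 9 of them lower, and 216 between times. Among list medians, that of coregulators became 0.00 without scaling and -0.02 without 1 h and 3 h, and that of the genes the study names 0.07 without 24 h and -0.38 without 1 h and 3 h.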
